A study of Mus musculus with 10 samples.

Results

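The genes described here copy the chromosomes of dividing cells: origin licensing, helicase, polymerase, clamp, fork and nucleotide supply genes, 48 in all, found by their gene symbols in the count table of MLL-AF9-transformed mouse cells. A gene was used where its counts summed to 10 or more across the 10 libraries, and 45 of the 48 met this, as did 20269 of all 52550 rows. In MLL-AF9-i139 cells, which carry a DOX-inducible miR-139 vector, the summed level of the 45 genes was 5625, 5789 and 5788 normalized CPM (counts scaled to a common library total) in untreated clones 1, 2 and 3, and 4114, 4213 and 5174 CPM after DOX. The same sum stayed between 5627 and 6002 CPM in the 4 libraries of MLL-AF9-ieGFP cells, which carry an inducible eGFP vector. The fitted change with DOX was below 0 for all 45 genes in MLL-AF9-i139 cells, beside 48.8% of all genes tested. The median log2 fold change of the 45 was −0.33, against 0.01 over all genes tested. No single one of the 45 passed an adjusted p of 0.05 in the fit without clone pairing, beside 0.0624% of all genes. When each clone was compared with itself 21 of the 45 passed, all lower, beside 5.33% of all genes called lower.

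The samples were haematopoietic stem and progenitor cell (HSPC)-enriched bone marrow cells of wild-type C57BL/6 mice, taken at 8 to 20 weeks of age, transformed with retroviral MLL-AF9, a leukaemia fusion gene, and grown with SCF, GM-CSF, IL-6 and IL-3. Both the DOX-treated and the untreated MLL-AF9-i139 cells also carry the pBabe-tetR-KRAB repressor and the pCW-miR-139 vector, so that the controls differ from the treated cells in DOX alone, as far as the labels say. Clones 1 and 2 were given DOX at 5 µg/mL for 48 h and clone 3 for 72 h, and the times of the untreated MLL-AF9-i139 cultures are not given. MLL-AF9-ieGFP is a single clone, sampled after 48 h and 72 h, each in the presence and in the absence of DOX, so that its 2 libraries per group are time points of 1 clone and not independent clones. Each MLL-AF9-i139 clone grew from a picked colony. In the fit without pairing, p-values measure the spread between these clones, with the longer DOX time of clone 3 inside it. With pairing they measure the spread of the DOX difference between clones. The tests of MLL-AF9-ieGFP and of the constructs share a spread over all 10 libraries, the 2 times of 1 clone included.

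A chromosome is copied from origins that are prepared and used once per cell cycle. Before S phase the origin recognition complex, Cdc6 and Cdt1 load the MCM2-7 ring onto DNA, which is called licensing, and at the start of S phase Cdc45 and the GINS complex turn the ring into a moving helicase. Polymerase alpha then starts the new strands, and polymerases epsilon and delta, held by the sliding clamp PCNA, extend them. Ribonucleotide reductase, thymidylate synthase and thymidine kinase supply the deoxynucleotides. Many of these genes are transcribed in a wave before S phase under E2F factors, and bulk RNA measures them in a mixture of cell cycle stages. A smaller share of cells in a stage and less RNA per cell cannot be told apart in such libraries.

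The libraries held 35133308 to 47089725 counts, and the 45 genes together took 0.571% to 0.589% of the counts in the 5 untreated libraries of both constructs. One library stood apart from its group: the pairwise chi-square per degree of freedom was 112 and 96.9 between DOX-treated clone 3 and clones 1 and 2, and 13.5 to 38.7 for every other pair within a group. Results in MLL-AF9-i139 cells are therefore also given without clone 3 (in the fit without pairing), and its longer DOX exposure cannot be told apart from the clone itself. Clone 3 was singled out by its values in these same data, so larger counts without it are no separate support. Of 13 markers of myeloid progenitor cells 12 were measured, with a summed level of 2769.5 to 3908 CPM in untreated MLL-AF9-i139, 3893 to 5719 CPM with DOX, 2862 to 3386 CPM in untreated MLL-AF9-ieGFP and 3186 to 4215 CPM with DOX. The exception, Itgam, had 6 counts in all 10 libraries. The summed levels of lymphoid markers stayed at or below 1.42 CPM and those of erythroid and megakaryocyte markers at or below 4.99 CPM, with 4 of 8 genes measured in each list and Ms4a1 and Hba-a2 at 0. Of 5 stromal markers 1 was measured, Pecam1, at 17.7 to 38.2 CPM. With the clone block 5 of the 12 myeloid markers rose, among them Mpo (log2 fold change 1.41), Fcgr3 (1.22) and Spi1 (0.62), while Hoxa9 fell (−0.35) and Kit (0.02) and Elane (−0.06) did not pass. Beside them 7.05% of all genes were called higher and 5.33% lower, and the fit without the block called 0 of the 12. In clone 3 the differences in log2 CPM were 1.53 for Mpo, 0.33 for Fcgr3 and 0.12 for Spi1. In MLL-AF9-ieGFP the log2 fold change of Mpo with DOX was 0.49, and it was not called. Gp9, of the megakaryocyte list, also rose with the block (2.73, adjusted p = 0.0278), from 0.046 to 0.205 CPM in untreated MLL-AF9-i139. Whether the myeloid marker difference has a part in the results was not tested. The induced miRNA could not be checked here, since the Mir139 row held 0 counts in every library.

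The mature arms of miR-139 are shown because DOX induces them, with the seed, bases 2 to 8, in capitals, and their RefSeq positions on GRCm38.p6 are chr7:101475382-101475403 for the 5p arm and chr7:101475418-101475439 for the 3p arm, both on the plus strand.
mmu-miR-139-5p: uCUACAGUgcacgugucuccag
mmu-miR-139-3p: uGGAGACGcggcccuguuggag
A 7-base match to the 5p seed was present in the longest annotated 3′ UTR of 6 of the 45 genes (13.3%), next to 12.5% of the 14445 genes tested that have such a UTR. The 6 genes were Cdc6, Mcm5, Gins3, Prim2, Fen1 and Tyms, with a median log2 fold change of −0.32, and the other members had a median of −0.34. For the 3p arm 1 of the 45 genes matched (2.22%), Pold3, against 3.74% of all such genes. A site is shown for the 2 members whose match is followed by an A, with the match in capitals.
Cdc6, 5p site on chromosome 11, base 1659 of the UTR: gcccactgcagaagACTGTAGa
Pold3, 3p site on chromosome 7, base 381 of the UTR: ggatgtgttcaccgCGTCTCCa
These are matches of letters, and binding was not measured.

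Promoters are shown for the gene with the lowest fitted change in each role, to let the shared letters be read beside the values given further on. They are the RefSeq stretches from 250 bases before to 50 bases after a transcription start on GRCm38.p6, written along the gene's own strand, with CCAAT boxes (CCAAT on either strand) and E2F-type sites (TTTCCCGC, TTTCGCGC, TTTGCCGC or TTTGGCGC on either strand) in capitals.
Orc1, chr4:108579204-108579503, plus strand: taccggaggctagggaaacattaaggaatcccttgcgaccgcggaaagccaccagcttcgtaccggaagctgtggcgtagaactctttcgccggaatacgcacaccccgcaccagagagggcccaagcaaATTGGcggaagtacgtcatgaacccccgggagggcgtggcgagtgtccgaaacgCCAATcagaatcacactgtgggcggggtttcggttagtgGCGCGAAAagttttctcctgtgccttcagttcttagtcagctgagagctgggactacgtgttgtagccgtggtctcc
Mcm10, chr2:5012742-5013041, minus strand: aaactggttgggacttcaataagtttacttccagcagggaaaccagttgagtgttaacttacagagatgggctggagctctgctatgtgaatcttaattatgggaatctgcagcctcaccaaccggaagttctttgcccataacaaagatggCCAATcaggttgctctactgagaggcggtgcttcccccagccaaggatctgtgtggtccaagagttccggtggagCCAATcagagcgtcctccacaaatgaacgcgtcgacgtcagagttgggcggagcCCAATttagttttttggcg
Pold2, chr11:5878207-5878506, minus strand: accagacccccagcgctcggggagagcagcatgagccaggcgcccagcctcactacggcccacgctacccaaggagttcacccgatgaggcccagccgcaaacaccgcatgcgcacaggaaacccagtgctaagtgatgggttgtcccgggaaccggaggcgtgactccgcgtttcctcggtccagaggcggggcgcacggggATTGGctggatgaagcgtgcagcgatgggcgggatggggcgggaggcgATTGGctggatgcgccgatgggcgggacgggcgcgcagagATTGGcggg
Rfc4, chr16:23127681-23127980, minus strand: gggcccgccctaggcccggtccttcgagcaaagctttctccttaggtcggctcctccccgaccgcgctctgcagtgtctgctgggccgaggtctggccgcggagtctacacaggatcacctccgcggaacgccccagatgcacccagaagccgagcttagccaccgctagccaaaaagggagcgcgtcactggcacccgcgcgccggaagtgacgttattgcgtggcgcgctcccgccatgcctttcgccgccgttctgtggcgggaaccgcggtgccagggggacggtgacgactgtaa
Rpa2, chr4:132768110-132768409, plus strand: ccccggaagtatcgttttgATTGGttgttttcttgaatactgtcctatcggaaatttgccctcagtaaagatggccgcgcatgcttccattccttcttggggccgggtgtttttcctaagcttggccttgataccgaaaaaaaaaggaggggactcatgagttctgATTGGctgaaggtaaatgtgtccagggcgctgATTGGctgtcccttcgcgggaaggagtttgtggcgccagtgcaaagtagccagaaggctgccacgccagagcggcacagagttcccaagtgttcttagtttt
Dna2, chr10:62946779-62947078, plus strand: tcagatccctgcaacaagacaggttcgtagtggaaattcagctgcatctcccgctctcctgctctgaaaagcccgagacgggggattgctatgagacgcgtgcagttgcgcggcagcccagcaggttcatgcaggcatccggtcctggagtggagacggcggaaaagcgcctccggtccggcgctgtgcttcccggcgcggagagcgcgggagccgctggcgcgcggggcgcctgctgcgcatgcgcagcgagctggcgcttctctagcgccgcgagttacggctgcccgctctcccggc
Chaf1a, chr17:56040166-56040465, plus strand: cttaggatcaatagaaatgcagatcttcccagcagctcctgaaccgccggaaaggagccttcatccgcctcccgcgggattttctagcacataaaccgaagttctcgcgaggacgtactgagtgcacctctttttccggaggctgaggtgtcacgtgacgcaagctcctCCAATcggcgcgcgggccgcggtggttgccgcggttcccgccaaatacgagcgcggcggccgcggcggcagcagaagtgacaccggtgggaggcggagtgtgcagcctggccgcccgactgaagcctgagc
Rrm2, chr12:24708004-24708303, plus strand: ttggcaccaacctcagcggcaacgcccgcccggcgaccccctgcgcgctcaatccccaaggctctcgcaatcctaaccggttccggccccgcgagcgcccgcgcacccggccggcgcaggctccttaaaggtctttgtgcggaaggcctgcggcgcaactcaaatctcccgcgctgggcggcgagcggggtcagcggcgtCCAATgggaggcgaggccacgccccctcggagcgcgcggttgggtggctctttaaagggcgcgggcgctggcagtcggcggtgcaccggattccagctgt
Orc1 held an E2F-type site 27 to 20 bases before its start, read on the minus strand, and CCAAT boxes on both strands. Mcm10, Pold2 and Rpa2 each held 3 CCAAT boxes, Chaf1a and Rrm2 each held 1, and Rfc4 and Dna2 held neither motif in this spelling. Of the 45 genes 38 had an entry in the promoter table, and 14 of these 38 (36.8%) held an E2F-type site, next to 4.03% of the tested genes with an entry. CCAAT boxes were present in 24 of the 38 (63.2%), next to 42.2% of the tested genes. A further motif, the CHR element spelled TTTGAA or TTCGAA, was present in 18.4% of the members and 17.6% of the tested genes. Members with an E2F-type site had a median log2 fold change of −0.30 and those without one −0.34, while the medians were −0.35 with and −0.28 without a CCAAT box. A match is a description of the letters and not a bound site.

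The main comparison asked what DOX did to these genes in MLL-AF9-i139 cells. All 45 had a log2 fold change below 0, where 48.8% of the 19223 genes tested did, and the values ran from −0.69 (Orc1) to −0.0036 (Orc3). In 35 of the 45 the 3 DOX-treated libraries all lay below the 3 untreated ones, where the background was 12.4% of 20269 genes, and in the other 10 the groups overlapped. By edgeR's quasi-likelihood test without pairing, 0 of the 45 had an adjusted p under 0.05, beside 0.0624% of all genes. The lowest adjusted p among the 45 was 0.0959 (Mcm10). At an unadjusted p under 0.05, 28 of the 45 were lower, where the background was 9.22%, and DESeq2 called 10 of them, all lower, beside 3.07% of all genes.

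Pairing each clone with itself changed the calls and moved the median estimate little. With clone identity as a block, 21 members fell at an adjusted p under 0.05 and none rose, beside 5.33% of all genes called lower, and the median log2 fold change was −0.34. The 21 were Orc1, Orc2, Orc5, Orc6, Cdc6, Mcm3, Mcm4, Mcm6, Mcm10, Cdc45, Pola1, Prim1, Prim2, Pold1, Pold2, Pole, Rfc4, Rpa2, Chaf1a, Rrm1 and Rrm2. Without clone 3 and without pairing, 31 of the 45 fell, where 10.1% of all genes were called lower, and the median of the 45 was −0.46. The same fit without clone 1 or without clone 2 called 0 of the 45, with 4 and 3 at an unadjusted p under 0.05. Beside these, 1283 of all 18014 and 1050 of all 18319 genes had an unadjusted p under 0.05. The calls with pairing rested on clones 1 and 2. Without clone 1 the block called 0 of the 45 and 0.322% of all genes lower. At an unadjusted p under 0.05 that fit had 19 of the 45, beside 3018 of all 18014 genes. Without clone 2 the block called 3 of the 45 and 0.677%, and without clone 3 it called 42 and 20.9%.

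**Figure D1:**
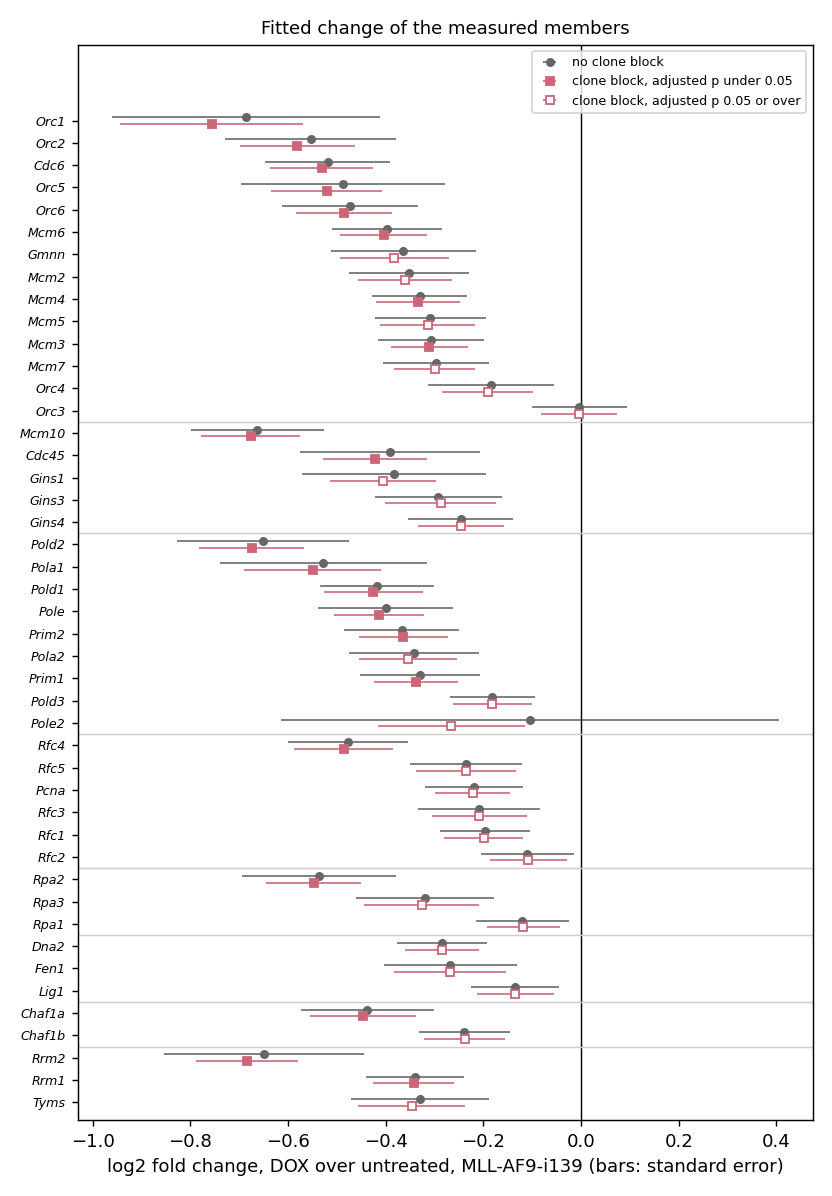
Log2 fold change of each measured gene with DOX in MLL-AF9-i139 (horizontal axis; bars are standard errors), without the clone block (grey circles) and with it (red squares, filled where the adjusted p was under 0.05), grouped by role. Every estimate lies below 0, 21 squares are filled, and Pole2 has the widest bar without the block (SE 0.51).

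The 3 clones did not move by the same amount. The median difference in log2 CPM, DOX minus untreated, over the 45 genes was −0.48 in clone 1, −0.48 in clone 2 and −0.16 in clone 3, and −0.05 and −0.01 in MLL-AF9-ieGFP at 48 h and 72 h. All 45 differences were below 0 in clones 1 and 2, and 42 were in clone 3. Over all 20269 genes 10265, 9883 and 9513 were below 0 in clones 1, 2 and 3. In 43 of the 45 the difference in clone 3 was the highest of the 3 clones, beside 8170 of all 20269 genes. The interaction of DOX with clone 3, in a fit with the clone block, called 20 of the 45, all with the higher value in clone 3. Beside them 7.15% of all genes were called in that direction, and the median interaction was 0.29 on the log2 scale. Among the 20, Pole2 and Rfc5 did not fall in clone 3, and the others fell less there. This fit has 1 residual degree of freedom, with 1 library of clone 3 per condition. Clone 3 was singled out by its values in these same data, so the calls are no separate support for its difference. DESeq2 called 2 of the 45 (Pola1 and Pole2), beside 1.83% of all genes called higher, and edgeR without the block called 0 (9 at an unadjusted p under 0.05).

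**Figure D2:**
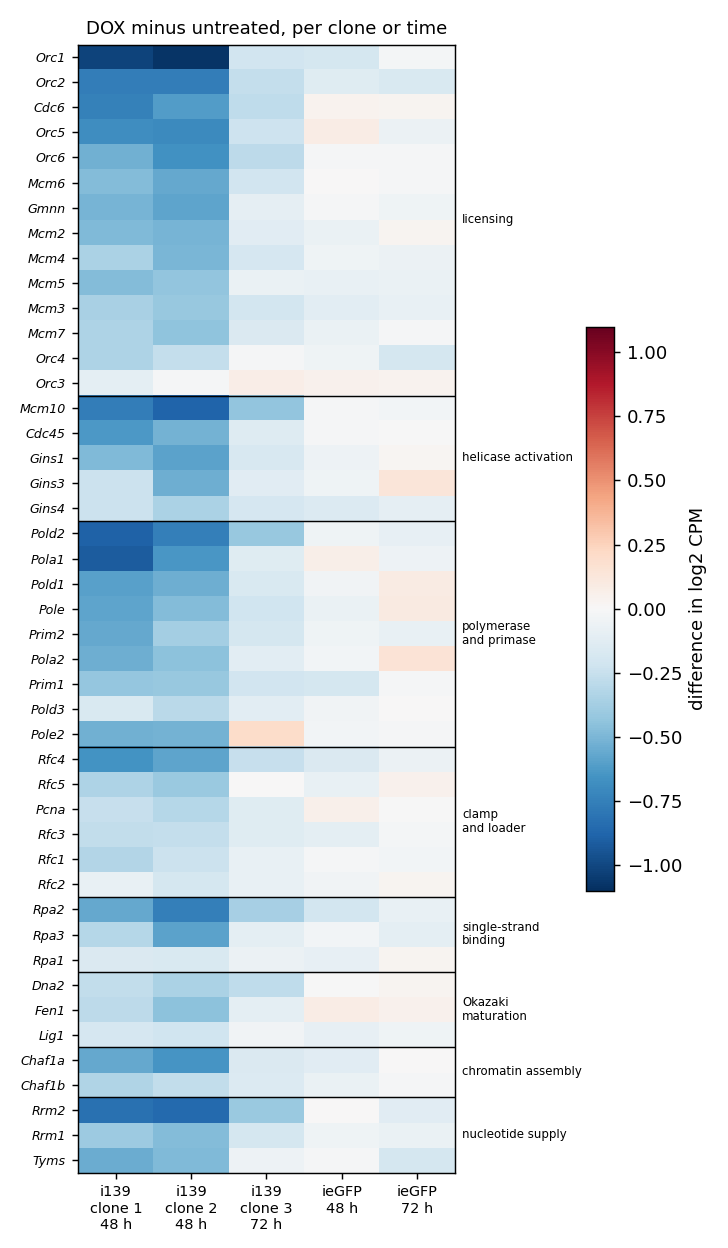
Difference in log2 CPM, DOX minus untreated, for the 45 genes (rows, grouped by role) in MLL-AF9-i139 clones 1, 2 and 3 and in MLL-AF9-ieGFP at 48 h and 72 h (columns; blue is lower with DOX, red higher). The first 2 columns are blue throughout, with medians of −0.48, the clone 3 column is paler with a median of −0.16, and the ieGFP columns are close to white.

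The licensing genes load the helicase at origins, and 14 of 15 were measured, with a median log2 fold change of −0.36, and 8 of the 14 fell with the clone block. Without clone 3, 12 of the 14 fell and the median was −0.49. In this and the following roles, counts with the block stand beside 5.33% of all genes called lower. Those without clone 3 stand beside 10.1% of all genes called lower. Orc1, the origin recognition subunit whose protein level varies over the cell cycle, read 12.4, 11.7 and 13.2 CPM untreated in clones 1, 2 and 3, and 6.08, 5.49 and 11.4 CPM with DOX. Clones 1 and 2 were thus near 6 CPM after DOX while clone 3 stayed just below the untreated range, and the 4 ieGFP libraries read 11.5 to 15.2 CPM. Its log2 fold change was −0.69 ± 0.27 (SE, with adjusted p = 0.212 without and 0.0452 with the block), and −1.03 ± 0.18 without clone 3. Orc1 had the fewest counts of all members, 216 to 603 per library. Of its gene body 63.3% lies inside another gene model on the opposite strand (Gm12743), and 10.8% of its exon length is shared with that model.

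Orc2, a further subunit of the complex, read 44.4, 45.4 and 48.7 CPM untreated and 26.2, 26.8 and 40.6 CPM with DOX, with no overlap. Its log2 fold change was −0.55 ± 0.18 (SE, with adjusted p = 0.148 without and 0.0310 with the block). Of its gene body 45.0% lies inside Nif3l1 on the opposite strand, and 29.8% of its exon length is shared with that gene. Cdc6, which helps the complex load the MCM ring, read 86.4, 88.4 and 87.0 CPM untreated and 51.7, 57.8 and 71.7 CPM with DOX. The untreated clones were within 2 CPM of each other, all 3 DOX libraries lay below them, and the ieGFP libraries read 83.3 to 88.1 CPM. The log2 fold change of Cdc6 was −0.52 ± 0.13 (SE, with adjusted p = 0.114 without and 0.0294 with the block). Orc3, in contrast, read 177, 158 and 172 CPM untreated and 164, 156 and 181 CPM with DOX, with overlapping groups, and its log2 fold change was −0.0036 ± 0.10. Without clone 3 the values were −0.74 ± 0.09 (Orc2), −0.66 ± 0.09 (Cdc6) and −0.05 ± 0.09 (Orc3), and the first 2 of these passed. The other origin recognition subunits lay between these, at −0.49 (Orc5), −0.47 (Orc6) and −0.18 (Orc4).

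The 6 subunits of the MCM2-7 ring moved within a narrow range, from −0.40 (Mcm6) to −0.30 (Mcm7), and in all 6 the DOX libraries lay below the untreated ones. The clone block called Mcm3, Mcm4 and Mcm6, and the fit without clone 3 called all 6. Gmnn, the inhibitor that holds Cdt1 back after origins have fired, had a log2 fold change of −0.36 ± 0.15 (adjusted p = 0.0651 with the block). Cdt1, the loading factor that Gmnn inhibits, had 0 counts in all 10 libraries, as did Gins2 and Tk1. Each of these 3 genes lies wholly inside another gene model (Cdt1 and Gins2 inside Gm20388, Tk1 inside Gm20708), the treatment of reads in shared stretches is not given in the sources used here, and a count of 0 is no level of these genes.

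The helicase activation genes turn the loaded ring into a working helicase, and 5 of 6 were measured, with a median log2 fold change of −0.38. Mcm10, which acts at the moment the helicase starts to unwind, read 118, 129.9 and 129 CPM untreated and 70.0, 70.5 and 95.9 CPM with DOX. All 3 DOX libraries lay well below the untreated ones, while the ieGFP libraries read 125 to 129.8 CPM. Its log2 fold change was −0.66 ± 0.14 (SE, with adjusted p = 0.0959 without and 0.0220 with the block), the lowest adjusted p among the 45 in both fits. Cdc45, a core part of the moving helicase, read 144, 142 and 167 CPM untreated and 93.1, 98.6 and 152 CPM with DOX, so that clone 3 with DOX overlapped the untreated clones. The log2 fold change of Cdc45 was −0.39 ± 0.18 (SE, with adjusted p = 0.274 without and 0.0468 with the block). Of the GINS subunits, which hold Cdc45 to the ring, Gins1 read 25.1, 27.0 and 31.0 CPM untreated and 17.9, 17.9 and 27.4 CPM with DOX. Gins4 had the smallest difference of this role, at 30.3, 33.0 and 32.5 CPM untreated and 25.6, 25.9 and 28.6 CPM with DOX, a log2 fold change of −0.25 ± 0.11. Neither Gins1 nor Gins4 passed the test with the block (adjusted p = 0.0545 and 0.109), although the groups of Gins4 did not overlap. Without clone 3, 3 of the 5 fell (Mcm10 −0.80, Cdc45 −0.56 and Gins1 −0.52), and Gins4, at −0.28, did not pass.

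The 9 polymerase and primase genes were all measured, with a median log2 fold change of −0.37, and 6 of the 9 fell with the clone block. Pold2, the accessory subunit of polymerase delta, which copies the lagging strand, read 60.1, 70.5 and 71.1 CPM untreated and 32.4, 41.8 and 53.2 CPM with DOX. The groups did not overlap, the ieGFP libraries read 68.9 to 74.3 CPM, and the log2 fold change was −0.65 ± 0.18 (SE, with adjusted p = 0.123 without and 0.0235 with the block). Pola1, the catalytic subunit of polymerase alpha, which extends the RNA primers, read 327, 228 and 277 CPM untreated and 174, 146 and 253 CPM with DOX. Its untreated clones differed widely and the groups overlapped, yet each clone was lower with DOX than without. The log2 fold change of Pola1 was −0.53 ± 0.21 (SE, with adjusted p = 0.213 without and 0.0479 with the block). Pold1, the catalytic subunit of polymerase delta, read 129, 138 and 126 CPM untreated and 85.1, 94.9 and 112 CPM with DOX. Its log2 fold change was −0.42 ± 0.12 (SE, with adjusted p = 0.126 without and 0.0421 with the block). Without clone 3, 8 of the 9 fell, with Pold2 at −0.80, Pola1 at −0.77 and Pold1 at −0.55.

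Pole2, the second subunit of the leading-strand polymerase epsilon, differed between the clones more than with DOX. It read 27.5, 33.3 and 62.4 CPM untreated and 19.0, 23.2 and 71.7 CPM with DOX, and 28.1 to 28.7 CPM in the ieGFP libraries. Clone 3 thus carried the highest level with and without DOX, and over the 5 untreated libraries the highest was 2.27 times the lowest, where the other 44 genes reached at most 1.44 times (Pola1). The log2 fold change of Pole2 was −0.10 ± 0.51 (SE), and −0.51 ± 0.14 (adjusted p = 0.0412) without clone 3. In Pole2 10.5% of the gene body is shared with another gene model (Gm49384). Pole, the catalytic subunit of the same enzyme, had a log2 fold change of −0.40 ± 0.14 and no overlap between the groups.

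**Figure D3:**
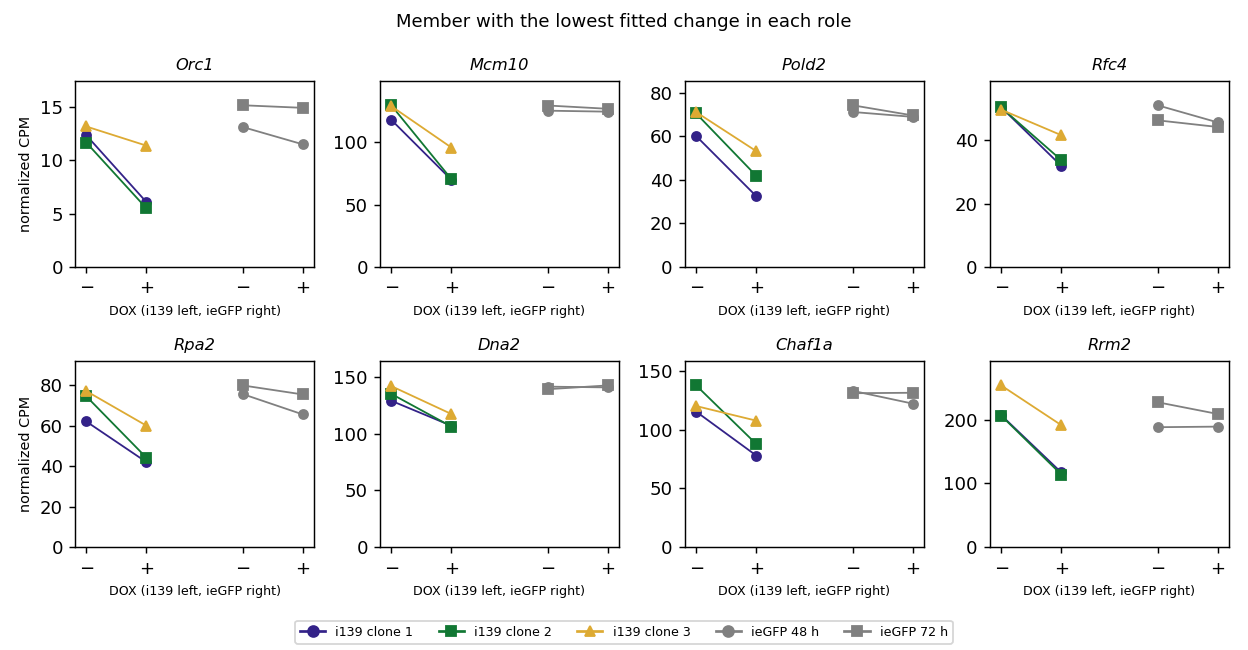
Normalized CPM (vertical axes, from 0) of the gene with the lowest fitted change in each role, without and with DOX; lines join the libraries of 1 MLL-AF9-i139 clone (left) or 1 MLL-AF9-ieGFP time (right). In clones 1 and 2 Orc1 went from 12.4 and 11.7 CPM to 6.08 and 5.49 CPM and Rrm2 from 208 and 207 CPM to 117 and 114 CPM, clone 3 differed less than clones 1 and 2 in all panels but Dna2, and the ieGFP lines are near level.

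The clamp PCNA and the 5 subunits of its loader, replication factor C, had a median log2 fold change of −0.21. With the block 1 of the 6 fell, a single call from which nothing is read about the role. Rfc4, a loader subunit, was that gene, and it read 50.5, 50.4 and 49.7 CPM untreated and 31.9, 33.7 and 41.6 CPM with DOX. The untreated clones differed by less than 1 CPM and all DOX libraries were lower, with a log2 fold change of −0.48 ± 0.12 (SE, with adjusted p = 0.118 without and 0.0327 with the block). Pcna itself, the ring that tethers the polymerases, read 162, 173 and 177 CPM untreated and 136, 139 and 161 CPM with DOX. Its groups did not overlap, but by less than 1 CPM, and its log2 fold change was −0.22 ± 0.10 (SE, with adjusted p = 0.261 without and 0.103 with the block). Rfc5 read 55.8, 62.6 and 53.5 CPM untreated and 44.2, 47.1 and 53.6 CPM with DOX, with clone 3 at nearly the same level in both. Rfc2 was closest to 0, at 79.2, 87.2 and 75.6 CPM untreated and 74.8, 76.0 and 71.3 CPM with DOX, with overlapping groups and a log2 fold change of −0.11 ± 0.10. Without clone 3, 2 of the 6 fell, Rfc4 (−0.60) and Rfc5 (−0.36), and Pcna, at −0.27, and Rfc2, at −0.12, did not pass. Genes on the opposite strand share 12.7% of the exon length of Rfc4, 10.7% of Rfc5 and 15.1% of Rfc2.

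Replication protein A covers the exposed single strands, and its subunits differed from each other. Rpa2, the regulatory subunit that checkpoint kinases phosphorylate, read 62.1, 74.5 and 77.1 CPM untreated and 42.0, 44.1 and 60.0 CPM with DOX. All DOX libraries were below the untreated ones, and the log2 fold change was −0.54 ± 0.16 (SE, with adjusted p = 0.133 without and 0.0270 with the block). Rpa3, the smallest subunit, read 20.9, 23.8 and 22.5 CPM untreated and 16.8, 15.8 and 20.9 CPM with DOX. Rpa1, the large DNA-binding subunit, read 207, 212 and 182 CPM untreated and 185, 189 and 174 CPM with DOX, with overlapping groups. The log2 fold changes were −0.32 ± 0.14 for Rpa3 and −0.12 ± 0.10 for Rpa1, and neither passed the test with the block (adjusted p = 0.110 and 0.327). Of the genes that finish Okazaki fragments, Dna2, a nuclease and helicase that trims long flaps, read 129, 135 and 142 CPM untreated and 107, 106 and 117 CPM with DOX. The difference in Dna2 was similar in the clones, −0.27, −0.35 and −0.28 in log2 CPM, and its adjusted p with the block was 0.0523. Fen1, the main flap nuclease, read 14.3, 16.1 and 14.7 CPM untreated and 11.7, 11.8 and 13.7 CPM with DOX. Of its gene body 67.7% lies inside other gene models, and 84.2% of its exon length is shared with genes on the opposite strand. Lig1, the ligase that seals the fragments, read 152, 164 and 145 CPM untreated and 134, 141 and 142 CPM with DOX. The groups of all 3 were apart, with log2 fold changes of −0.28 ± 0.09, −0.27 ± 0.14 and −0.14 ± 0.09, and none passed the test with the block. Without clone 3, Rpa2 (−0.65) and Dna2 (−0.29) fell, and Rpa3 (−0.44), Rpa1 (−0.14), Fen1 (−0.35) and Lig1 (−0.18) did not pass.

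Chromatin assembly factor 1 puts histones onto the new DNA behind the clamp. Its large subunit Chaf1a read 116, 138 and 120.4 CPM untreated and 78.1, 87.9 and 108 CPM with DOX, with no overlap. The log2 fold change of Chaf1a was −0.44 ± 0.14 (SE, with adjusted p = 0.141 without and 0.0434 with the block). Of its gene body 16.5% lies inside other gene models, and 52.5% of its exon length is shared with Ubxn6 on the opposite strand. Chaf1b, its partner, read 67.2, 68.3 and 62.5 CPM untreated and 53.3, 56.7 and 56.3 CPM with DOX, a log2 fold change of −0.24 ± 0.09 (adjusted p = 0.100 with the block). Without clone 3 Chaf1a fell (−0.59) and Chaf1b, at −0.28, did not pass.

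In nucleotide supply 3 of 4 genes were measured, and 2 of the 3 fell with the block. Rrm2, the S-phase subunit of ribonucleotide reductase, which makes deoxynucleotides from ribonucleotides, read 208, 207 and 255 CPM untreated and 117, 114 and 192 CPM with DOX. Clone 3 started higher and stayed higher, the groups did not overlap, and the ieGFP libraries read 189 to 228 CPM. Its log2 fold change was −0.65 ± 0.20 (SE, with adjusted p = 0.146 without and 0.0221 with the block). Rrm1, the large subunit of the same enzyme, read 381, 420.3 and 391 CPM untreated and 289, 303 and 343 CPM with DOX, and its log2 fold change was −0.34 ± 0.10 (SE, with adjusted p = 0.133 without and 0.0432 with the block). Tyms, which makes thymidylate, read 84.1, 88.9 and 87.2 CPM untreated and 57.7, 63.7 and 84.0 CPM with DOX. The groups of Tyms were apart by less than 1 CPM, with clone 3 at nearly the same level in both, and its log2 fold change was −0.33 ± 0.14 (adjusted p = 0.0809 with the block). Without clone 3 all 3 fell, Rrm2 by 0.82, Tyms by 0.49 and Rrm1 by 0.42 on the log2 scale.

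**Figure D4:**
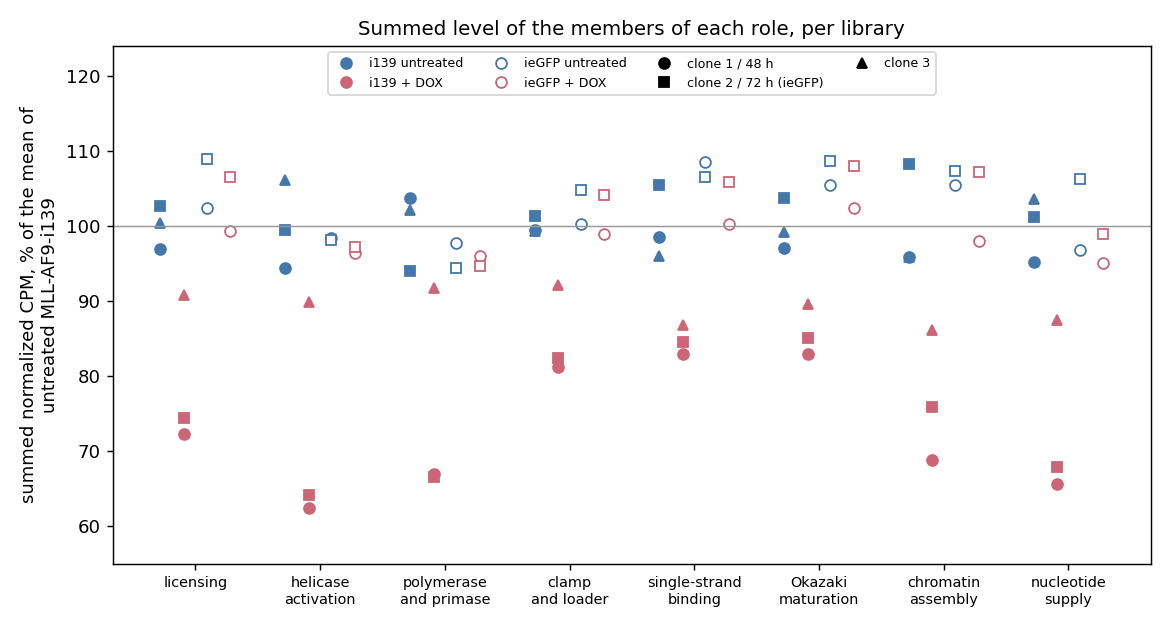
Summed normalized CPM of the measured genes of each role in every library, as a percent of the mean of the 3 untreated MLL-AF9-i139 libraries (vertical axis, drawn from 55%; colour is treatment, filled symbols i139, open symbols ieGFP, symbol shape the clone or time). In clones 1 and 2 with DOX the sums lay between 62.4% (helicase activation, clone 1) and 85.1% (Okazaki maturation, clone 2), in clone 3 with DOX between 86.1% and 92.1%, and in the ieGFP libraries between 94.4% and 108.9%.

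The comparison with MLL-AF9-ieGFP asked whether DOX moved these genes in cells where it induces eGFP in place of miR-139. DOX and eGFP induction cannot be told apart in that clone. In that clone edgeR called 0 of the 45, beside 0% of the 20269 genes tested, and 0 of the 45 had an unadjusted p under 0.05. DESeq2 also called 0 of the 45. Their log2 fold changes ran from −0.15 to 0.07 with a median of −0.03. Of the 45, 34 were below 0, beside 9717 of all 20269 genes. The DOX effect in MLL-AF9-i139 minus that in MLL-AF9-ieGFP was below 0 for all 45, beside 10402 of all 20269 genes. The median of this difference was −0.32 over the 45, against −0.01 over all genes. For Mcm10 the difference was −0.66 ± 0.19 (SE), for Rrm2 −0.60 ± 0.29, for Cdc6 −0.56 ± 0.18 and for Orc3 −0.06 ± 0.13. In the fit of all 10 libraries 0 of the 45 passed the test of this difference by edgeR, beside 0.00493% of all genes. At an unadjusted p under 0.05 there were 8 of the 45, beside 1859 of all 20269 genes, and DESeq2 called 0 of the 45. With the clone and time as a block, 0 passed and 26 had an unadjusted p under 0.05, beside 3823 of all 20269 genes. Without clone 3, 15 of the 45 passed, all lower in MLL-AF9-i139, where 4.44% of all genes were called lower. With DOX at 48 h in both constructs the median difference of the 45 was −0.44. That fit holds 1 ieGFP library per condition, and the times of the untreated MLL-AF9-i139 cultures are not given, so no calls are read from it. The control is 1 clone, so differences between the constructs and between clones cannot be told apart in it.

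Other genes of the same pathways, taken from lists that were not trimmed by their values, were counted in the same way. Their counts with the block stand beside 5.33% of all genes called lower and 7.05% called higher, and those of DESeq2 beside 3.07% and 5.03%. Counts at an unadjusted p under 0.05 in MLL-AF9-i139 stand beside 3959 of the 19223 genes tested, in either direction. Of 39 further fork and origin genes measured, edgeR without the block called 0 (15 at an unadjusted p under 0.05, 6 by DESeq2) and with it 10 lower and 1 higher, with a median log2 fold change of −0.23. Uhrf1, which carries DNA methylation over to the new strand, read 381, 431 and 406 CPM untreated and 232, 243 and 341 CPM with DOX, and Recql4, a helicase that helps start replication, had a log2 fold change of −0.58 ± 0.21. Pold4, the smallest subunit of polymerase delta, was the gene called higher, and it read 10.5, 12.9 and 11.2 CPM untreated and 27.2, 30.8 and 16.4 CPM with DOX. Its log2 fold change was 1.12 ± 0.23 (SE, with adjusted p = 0.0959 without and 0.0235 with the block), opposite in sign to the −0.65 of Pold2 and the −0.42 of Pold1 in the same enzyme. A single gene called higher is no more than the share over all genes, and nothing is read about the list from it. Without clone 3, where 10.1% of all genes were called lower and 11.6% higher, 16 of the 39 fell and 1 rose, with a median of −0.32, and the values were −0.76 for Uhrf1, −0.80 for Recql4 and 1.33 for Pold4.

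Of 33 further nucleotide supply genes measured, 20 fell with the block and none rose, with a median log2 fold change of −0.42, and edgeR without it called 0 (21 at an unadjusted p under 0.05, 13 by DESeq2). Cad, the enzyme that starts pyrimidine synthesis, read 364, 413 and 405 CPM untreated and 149, 177 and 304 CPM with DOX. All DOX libraries lay below the untreated ones, with a log2 fold change of −0.89 ± 0.24 (SE, with adjusted p = 0.120 without and 0.0257 with the block). Dctd, which deaminates dCMP to dUMP, and Dut, which clears dUTP, had log2 fold changes of −0.75 ± 0.26 and −0.64 ± 0.23. Without clone 3, 22 of the 33 fell and 1 rose, with a median of −0.61 and values of −1.23 for Cad, −1.19 for Dctd and −0.95 for Dut.

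Of 17 E2F factors and S-phase kinases and cyclins, 5 fell and 1 rose with the block, with a median of −0.37, and edgeR without it called 0 (8 at an unadjusted p under 0.05, 6 by DESeq2). Cdc25a, the phosphatase that opens the way into S phase, read 176, 177 and 172 CPM untreated and 100.3, 109 and 145 CPM with DOX, while Tfdp2, a partner of E2F factors, was the 1 gene that rose, a count no higher than the share over all genes gives for 17, from 53.1, 46.1 and 54.6 CPM to 82.9, 77.4 and 73.8 CPM. Ccne1, the cyclin of S-phase entry, read 32.5, 33.3 and 33.7 CPM untreated and 20.2, 17.1 and 32.1 CPM with DOX, and did not pass (adjusted p = 0.0650 with the block). Without clone 3, 12 of the 17 fell and 1 rose, with a median of −0.49 and values of −0.73 for Cdc25a, −0.80 for Ccne1 and 0.71 for Tfdp2. Of 13 replication stress and checkpoint genes measured, 8 fell with the block and 0 were called without it (9 at an unadjusted p under 0.05, 5 by DESeq2), with a median of −0.43. Rad1, part of the checkpoint clamp, was at −0.58 ± 0.18 and Exo1, an exonuclease, at −0.57 ± 0.19. Without clone 3, 9 of the 13 fell, with a median of −0.60, and the values were −0.80 for Rad1 and −0.84 for Exo1. In MLL-AF9-ieGFP edgeR called 0 genes of these 4 lists, with 0 at an unadjusted p under 0.05 and 0 by DESeq2.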

How the data were processed

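The 10 cultures were sequenced after rRNA depletion, 6 of MLL-AF9-i139 (3 clones, untreated or given DOX) and 4 of MLL-AF9-ieGFP. According to the methods and the submitters' processing notes, the authors aligned reads to GRCm38 with STAR 2.5.3e and ran featureCounts 1.6.0 on a GENCODE annotation. The deposited tables hold raw counts (52550 rows), and 14 columns of other samples were not used. Strand and overlap settings of the counting are not given in the sources used here.

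Differences were tested by the quasi-likelihood method of edgeR 4.0.16 in R 4.3.3, TMM-normalized, on genes with a summed count of 10 or more, Benjamini-Hochberg adjusted over all genes, in the 6 MLL-AF9-i139 libraries. The ieGFP change and the DOX by construct interaction came from all 10 libraries, and the clone 3 interaction from a fit with the clone block. SE is the absolute log2 fold change divided by the square root of F. Differences of log2 CPM used a prior count of 2. DESeq2 1.42.0, other size factors and filters, the block and left-out clones were alternatives.

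The clone labels pair the libraries. Across 19223 genes, deviations from the group mean correlated at 0.38, 0.29 and 0.41 within clones 1, 2 and 3, and at −0.32 to −0.04 between clones. Deviations cancel out over the clones of a group, so negative values between clones follow from positive ones within and add nothing to them.

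The genes and lists were chosen with earlier results of these data known. Values per library are given for the 3 genes with the largest absolute change and the 1 with the smallest in each role, at most 3 genes are named from each other list (1 is not reported here), and promoters are those of the lowest gene per role with an entry. Gene models are GENCODE M21, and promoters and miRNAs are RefSeq on GRCm38.p6.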

Additional observations from a re-analysis of the deposited data

Results flagged for a closer look

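By the interaction term of edgeR's quasi-likelihood test with the clone block, 20 of the 45 genes had an adjusted p under 0.05 for a difference in the DOX effect between clone 3 and clones 1 and 2. Clone 3 has 1 library per condition, so that the spread comes from clones 1 and 2 with 1 residual degree of freedom, and edgeR without the block called 0 of the 45 (9 at an unadjusted p under 0.05) and DESeq2 2. On the log2 scale, clone 3 minus clones 1 and 2, the differences were 0.82 for Orc1, 0.71 for Pole2, 0.63 for Pola1, 0.48 for Orc2, 0.45 for Orc5, 0.44 for Tyms, 0.43 for Chaf1a, 0.43 for Gmnn, 0.42 for Cdc45, 0.41 for Rrm2. They were 0.38 for Pold2, 0.38 for Pold1, 0.38 for Cdc6, 0.37 for Mcm10, 0.37 for Mcm5, 0.36 for Mcm2, 0.36 for Rfc5, 0.36 for Pola2, 0.35 for Rfc4 and 0.30 for Mcm6. All 20 are above 0. In clone 3 itself 42 of the 45 genes were lower with DOX, beside 9513 of all 20269 genes. Pole2 read 62.4 CPM untreated and 71.7 CPM with DOX there. Clone 3 had DOX for 72 h and clones 1 and 2 for 48 h, and clone and time cannot be told apart here. It was also singled out by its values in these same data, so the calls above are no separate support for its difference. The ieGFP clone, sampled at both times, had medians over the 45 genes of −0.05 at 48 h and −0.01 at 72 h.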

How the results depend on the processing

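In MLL-AF9-i139 the count of replication genes called was 0 under RLE size factors, library totals alone and filters of at least 10 counts in 3 or in every library, 1 with at least 1 count in total, 10 by DESeq2 and 10 in the fit of all 10 libraries. It was 21 with the replicate block, 0 to 31 with a clone left out, the 31 without clone 3, and 0 to 42 with a clone left out under the block. The block combined with library totals alone, RLE size factors or DESeq2, chosen after seeing the data, called 12, 21 and 27. All called genes were lower, and the median moved between −0.28 and −0.46. The count over all genes, 12, became 1556 by DESeq2, 2 with library totals alone, 562 with at least 1 count, 6 and 2 with the stricter filters, 1234 with all 10 libraries and 2381 with the block. With a clone left out it was 0 to 3981, and under the block 324 to 7974; the block with library totals, RLE or DESeq2 gave 2132, 2379 and 3037. The cause of these shifts was not tested.

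The ieGFP count stayed 0 under every alternative, the replicate block included, with medians from −0.04 to −0.03. For DOX by construct it was 0 with the replicate block and 0 to 15 with an MLL-AF9-i139 clone left out, the 15 without clone 3. With DOX at 48 h in both constructs the median difference was −0.44. For DOX by clone 3 the count of 20 became 2 by DESeq2 and 0 with no replicate block, and 17 to 22 otherwise. Of the 27 genes given per library, Orc3 changed sign with at least 1 count (0.0059) and ran from −0.045 to 0.033 with a clone left out, and Pole2 ran from −0.51 to 0.018. The lowest counts in a library were 216 for Orc1 and 464 for Fen1.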
